A study of Arabidopsis thaliana with 6 samples.

Results

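The 4 genes described here, XTH18, XTH19, XTH32 and EXGT-A3, encode xyloglucan endotransglucosylase/hydrolases (XTH enzymes) of Arabidopsis thaliana. They were chosen as the probe sets whose annotation names exactly 1 of these genes, which gave 1 probe set per gene and 4 of the 22810 probe sets in the table. The 4 genes were picked with earlier results of these data known. RNA of mature pollen was measured on 6 Affymetrix ATH1 arrays. The TF1 line (stock SAIL_1168_C11) and the TF2 line (stock SALK_018864) are insertion lines in the Col-0 background, and wild type is Col-0 itself, with 2 arrays in each group. All plants grew on compost at 21 °C and 75% humidity, were collected at the growth stage coded 6.00, and carry no further treatment in the labels. From knowledge outside the labels, SALK_018864 disrupts BZIP34, a bZIP factor gene of pollen. For the TF1 line the disrupted gene, and for all groups the zygosity and number of plants behind each array, are not stated in the labels. Each line is 1 stock, and p-values measure only the spread between these arrays, which may be technical and which limma moderates across probe sets.

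Xyloglucan is the main hemicellulose of the primary cell wall in Arabidopsis and coats and tethers cellulose. An XTH enzyme cuts a xyloglucan chain and joins the new end to another xyloglucan chain, or to water, so that the wall can be remodelled while it is extended. The family is large, and its members differ in tissue and in the balance of the joining and cutting reactions. The pollen tube wall is made mainly of pectin, callose and cellulose, with xyloglucan as a further component. Of 33 XTH genes in the gene table used here, 10 had a probe set of their own in the probe annotation, namely the 4 genes above and XTH16, XTH20, XTH21, XTH26, XTH29 and XTH33. The remaining XTH genes are not analysed here.

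Markers of pollen were present on all arrays. The summed signal (array intensity, no fixed unit) of 7 vegetative cell genes lay between 17738 and 18302 in the TF1 line, between 20020 and 23051 in the TF2 line and between 10241 and 10483 in wild type. By limma, 6 of the 7 were called higher in each line. Of all tested probe sets, 11.9% were called higher for the TF1 line and 14.8% for the TF2 line. AtVEX1 was called lower, at −0.86 log2 in the TF1 line (adjusted p = 0.00269) and −0.75 in the TF2 line (adjusted p = 0.00462). The dependence of these marker calls on the scaling was not examined. The summed signal of 3 sperm genes lay between 1391 and 1426 in the TF1 line and between 1281 and 1469 in the TF2 line. In wild type it lay between 647 and 773. MGH3 was the 1 of 3 called in either line (higher in both). The summed signal of 11 leaf markers, such as the Rubisco activase gene RCA, lay between 673 and 753 in the TF1 line, between 678 and 808 in the TF2 line and between 6426 and 6816 in wild type. By limma, 10 of 11 were called lower in each line than in wild type, LHCB4.3 being the other. LHCB4.1, LHCB4.2 and HPR passed the filter on dim probe sets, given below, only through wild type. Their passing favoured a call of lower, so the count describes these markers only. Calls of lower covered 9.64% of tested probe sets for the TF1 line and 16.0% for the TF2 line. On TF1 line replicate 2, 1 leaf marker read under 10.3, the 25th percentile of all values. On TF2 line replicates 1 and 2, 1 and 2 of them did. The anther gene AMS and the floral genes DFR and UFO, the only markers of those tissues with a probe set of their own, were not called in any comparison by limma. Of 11 actin and GAPDH control probe sets, 10 read lower on both arrays of each line than on either wild-type array, without a test. These 10 include probe sets of the 3′, middle and 5′ parts of both transcripts. The other one, a 5′ actin probe set, read 102 and 172 on the TF1 arrays, 229 and 349 on the TF2 arrays, and 104 and 84.8 on the wild-type arrays. The leaf markers and most of these controls lay in the same direction as the XTH genes below, and their part in the XTH results was not tested. In such bulk samples, fewer cells of a type and less RNA per cell cannot be told apart.

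Signals of all 4 genes were lower on every array of both lines than on either wild-type array. By limma, XTH18, XTH19 and EXGT-A3 were called lower in the TF1 line, and all 4 genes were called lower in the TF2 line. Changes are differences of log2(signal + 10.3), where 10.3 is the 25th percentile of all values, and a call is an adjusted p under 0.05 after Benjamini-Hochberg adjustment over 11373 tested probe sets. All 4 genes passed the filter on dim probe sets, a mean log2 value of at least 5.39 over the 6 arrays. XTH19 and XTH32 passed only through wild type: their means were 4.69 and 5.02 over the 4 arrays of the lines, and 7.45 and 6.44 over the wild-type arrays. Their passing therefore favoured a call of lower, and the counts of called genes are a description of these 4 genes. With no filter, 2 of 4 genes were called lower in the TF1 line and 4 of 4 in the TF2 line. Without wild type replicate 1 or wild type replicate 2, 0 of 4 genes were called lower in the TF1 line and 2 of 4 in the TF2 line, and without TF1 line replicate 1 or TF1 line replicate 2, 1 of 4 was called in the TF1 line. Calls were common on these arrays: 9.64% of tested probe sets were called lower for the TF1 line and 16.0% for the TF2 line. Groups that did not overlap, with both arrays of the line under both of wild type, were seen for 31.3% of probe sets for the TF1 line and 31.8% for the TF2 line.

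**Figure D1:**
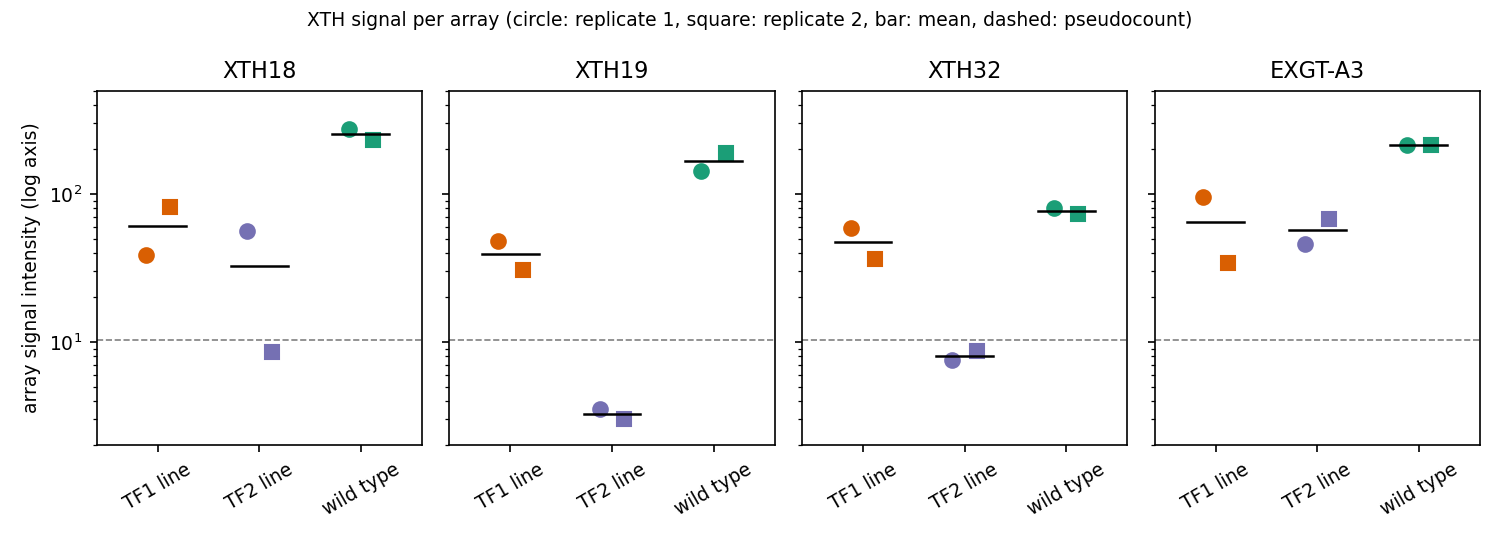
Array signal intensity (log axis) of XTH18, XTH19, XTH32 and EXGT-A3 on each array of the TF1 line, the TF2 line and wild type. Circles and squares are replicates 1 and 2, bars are group means and the dashed line is the pseudocount of 10.3. The wild-type arrays are the highest for each gene, and XTH19 and XTH32 lie under the dashed line on both TF2 arrays.

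XTH18 (AT4G30280) belongs with XTH19 and XTH20 to a group of closely related XTH genes best known from the root. XTH18 read 39.0 and 82.1 on the TF1 arrays, 56.2 and 8.52 on the TF2 arrays, and 272.9 and 232 on the wild-type arrays. The wild-type arrays were the high ones, both lines lay below them without overlap, and the lines overlapped each other. XTH18 averaged 60.5 ± 30.5 in the TF1 line, 32.4 ± 33.7 in the TF2 line and 253 ± 28.7 in wild type (SD, n = 2 arrays a group). The log2 change was −1.96 in the TF1 line (SE 0.55, adjusted p = 0.0243 by limma), a fold of 3.88 lower, and −2.89 in the TF2 line (SE 0.55, adjusted p = 0.00165), a fold of 7.40 lower. The arrays of the TF2 line disagreed: the change was −3.80 without TF2 line replicate 1 and −1.98 without TF2 line replicate 2, and both values passed the threshold (adjusted p = 0.000326 and 0.00617). The call in the TF1 line was lost without wild type replicate 1 (adjusted p = 0.197), wild type replicate 2 (0.136) or TF1 line replicate 1 (0.191), without the intensity trend (0.128), after quantile normalization (0.0608) and with the pseudocount of 3.87 (0.0521).

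XTH19 (AT4G30290) is the next gene after XTH18 in the gene order of the TAIR10.1 gene table, and XTH24 stands just before XTH18. XTH19 read 48.4 and 30.4 on the TF1 arrays, 3.54 and 3.02 on the TF2 arrays, and 144 and 189 on the wild-type arrays. No group overlapped another, the order ran from the TF2 line at the bottom through the TF1 line to wild type, and both TF2 arrays lay under the pseudocount. XTH19 averaged 39.4 ± 12.7 in the TF1 line, 3.28 ± 0.372 in the TF2 line and 166 ± 31.8 in wild type (SD, n = 2 arrays a group). In the TF2 line XTH19 fell by 3.69 on the log2 scale (SE 0.56, adjusted p = 0.000324 by limma). Since both TF2 arrays read under the pseudocount and were not shown to be above background, the size of this change rests on the pseudocount: it was −4.56 with a pseudocount of 3.87 and −2.31 with one of 37.5, and was called with both. In the TF1 line XTH19 fell by 1.84 (SE 0.56, adjusted p = 0.0354), a call that ended when TF1 line replicate 1 (adjusted p = 0.0596), TF1 line replicate 2 (0.125), wild type replicate 1 (0.220) or wild type replicate 2 (0.376) was left out. It also ended with no filter on dim probe sets (0.0721), after quantile normalization (0.0922), after median centring (0.0541) and with the pseudocount of 3.87 (0.0803).

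XTH32 (AT2G36870) belongs to the branch of the family in which enzymes that cut xyloglucan without rejoining it have been described. XTH32 read 58.7 and 36.5 on the TF1 arrays, 7.53 and 8.64 on the TF2 arrays, and 79.9 and 73.4 on the wild-type arrays. The TF2 arrays were the low ones, and the TF1 arrays lay nearer to wild type. XTH32 averaged 47.6 ± 15.7 in the TF1 line, 8.09 ± 0.784 in the TF2 line and 76.6 ± 4.63 in wild type (SD, n = 2 arrays a group). Its log2 change in the TF2 line was −2.24 (SE 0.60, adjusted p = 0.0129 by limma), a size that also rests on the pseudocount since both TF2 arrays read under it, and the call was lost when wild type replicate 1 (adjusted p = 0.134) or wild type replicate 2 (0.116) was left out and the tested probe sets were kept as with all arrays. In the TF1 line the change was −0.61 (95% interval −1.91 to 0.69, adjusted p = 0.538) and was not called, although the arrays did not overlap.

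EXGT-A3 (AT2G01850), also known as XTH27, has been studied in the differentiation of water-conducting vessel cells. EXGT-A3 read 95.7 and 34.0 on the TF1 arrays, 45.6 and 67.9 on the TF2 arrays, and 215 and 213 on the wild-type arrays. The wild-type arrays nearly coincided, whereas the TF1 arrays lay 1.26 log2 units apart and spanned those of the TF2 line. EXGT-A3 averaged 64.8 ± 43.7 in the TF1 line, 56.8 ± 15.8 in the TF2 line and 214 ± 1.63 in wild type (SD, n = 2 arrays a group). The log2 change was −1.71 in the TF1 line (SE 0.43, adjusted p = 0.0123 by limma), a fold of 3.28 lower, and −1.76 in the TF2 line (SE 0.43, adjusted p = 0.00732), a fold of 3.40 lower. Both calls were lost without wild type replicate 1 (adjusted p = 0.109 for the TF1 line and 0.0727 for the TF2 line), without wild type replicate 2 (0.104 and 0.0662) and without the intensity trend (0.0889 and 0.0523). In the TF1 line the change was −1.08 without TF1 line replicate 2 (adjusted p = 0.0829) and −2.34 without TF1 line replicate 1 (adjusted p = 0.00807).

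The comparison of the lines with each other asks whether their changes from wild type were unequal. None of the 4 genes was called between the TF2 and TF1 lines by limma, where 3.80% of tested probe sets were called lower and 0.853% higher, and XTH19 and XTH32 had an unadjusted p under 0.05. The log2 difference, TF2 line minus TF1 line, was −1.85 for XTH19 (95% interval −3.08 to −0.62, unadjusted p = 0.00675, adjusted p = 0.0945) and −1.63 for XTH32 (−2.93 to −0.33, unadjusted p = 0.0185, adjusted p = 0.165). Both TF2 arrays lay under both TF1 arrays for these 2 genes, as they did for 22.6% of tested probe sets. For XTH18 the difference was −0.93 (−2.14 to 0.28, adjusted p = 0.408) and for EXGT-A3 it was −0.05 (−0.98 to 0.88, adjusted p = 0.970), with overlapping arrays in both cases. The XTH18 difference was −0.02 without TF2 line replicate 2 and −1.84 without TF2 line replicate 1. The XTH18 interval extends to −2.14, and that of EXGT-A3 extends to nearly 1 log2 unit in either direction. These data therefore do not show that the lines were alike for these 2 genes.

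The other 6 XTH genes with a probe set of their own gave no call in any comparison. Of these, 2 passed the filter on dim probe sets, and only those 2 could receive a call. XTH20, the root gene related to XTH18 and XTH19, read 47.8 and 44.8 on the TF1 arrays, 42.5 and 42.9 on the TF2 arrays, and 26.2 and 22.7 on the wild-type arrays. These values ran opposite to those of XTH18 and XTH19, but the log2 change of 0.70 in the TF1 line (adjusted p = 0.444) and 0.61 in the TF2 line (adjusted p = 0.460) did not pass the threshold. XTH29 read 91.0 and 158 on the TF1 arrays, 197 and 183 on the TF2 arrays, and 108 and 140.2 on the wild-type arrays, with a change of −0.03 in the TF1 line (adjusted p = 0.964) and 0.59 in the TF2 line (adjusted p = 0.170).

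The other 4 XTH genes fell below the filter and are given from the limma fit without it. XTH21, a gene of root growth, read 4.87 and 4.64 on the TF1 arrays, 2.34 and 13.6 on the TF2 arrays, and 30.3 and 31.6 on the wild-type arrays. Wild type was again the highest group without overlap, and the log2 change was −1.45 in the TF1 line (unadjusted p = 0.0221, adjusted p = 0.143) and −1.24 in the TF2 line (unadjusted p = 0.0437, adjusted p = 0.176). XTH26 lay under the pseudocount on every array except TF2 line replicate 2, where it read 25.9. XTH16 and XTH33, which encodes an XTH enzyme of the plasma membrane, lay under the pseudocount on TF1 line replicate 2 (3.91 and 2.12) and overlapped between all groups. The median change of all 6 genes was −0.46 for the TF1 line and 0.35 for the TF2 line, with 4 of 6 below 0 in the TF1 line and 2 of 6 in the TF2 line.

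**Figure D2:**
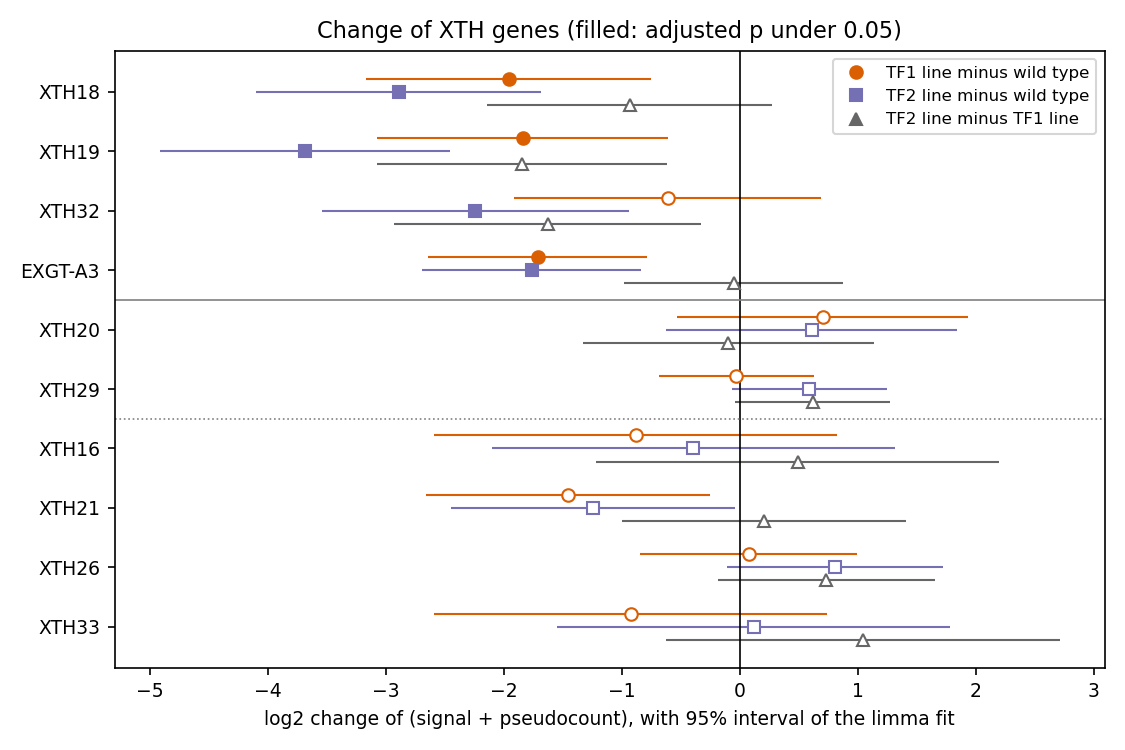
Log2 change of (signal + pseudocount) with the 95% interval of the limma fit for the 10 XTH genes with a probe set of their own. Genes under the solid line are the other 6, those under the dotted line come from the fit without the filter on dim probe sets, and filled symbols mark an adjusted p under 0.05. Filled symbols appear for XTH18, XTH19, XTH32 and EXGT-A3 only, in 3 of 4 cases for the TF1 line and 4 of 4 for the TF2 line. Of all tested probe sets, 9.64% and 16.0% were called lower in these comparisons. Genes under the dotted line could not be filled, since only genes that passed the filter could be called. XTH19 and XTH32 passed it only through wild type. The 4 genes were picked with earlier results of these data known, so their contrast with the other 6 is a description only.

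Genes that make the xyloglucan backbone moved the other way where they were called. Of 20 genes listed for xyloglucan synthesis and trimming, 4 had a probe set of their own, all of the CSLC family of glucan synthases, and all 4 were tested. CSLC12 and CSLC6 were called higher in each line by limma and none was called lower, beside 11.9% of tested probe sets called higher for the TF1 line and 14.8% for the TF2 line. CSLC12 read 3832 and 4738 on the TF1 arrays, 5247 and 5544 on the TF2 arrays, and 1930.2 and 1499 on the wild-type arrays. Both lines lay above wild type without overlap, with a log2 change of 1.32 in the TF1 line (SE 0.15, adjusted p = 9.33e-05) and 1.66 in the TF2 line (SE 0.15, adjusted p = 7.13e-06). The call in the TF1 line was lost without the intensity trend (adjusted p = 0.0581), and after quantile normalization the CSLC12 changes were 0.68 (adjusted p = 0.00594) in the TF1 line and 0.90 (adjusted p = 0.000537) in the TF2 line.

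CSLC6 averaged 590.2 ± 9.58 in the TF1 line, 577 ± 45.5 in the TF2 line and 389.8 ± 4.94 in wild type (SD, n = 2 arrays a group). Its log2 changes were 0.59 (adjusted p = 0.0155 by limma) and 0.55 (adjusted p = 0.0153), and both calls were lost without wild type replicate 1 (adjusted p = 0.0878 and 0.0789), without wild type replicate 2 (0.109 and 0.0940) and without the trend (0.155 and 0.130). In the TF1 line the call also ended without TF1 line replicate 1 (0.0571) or TF1 line replicate 2 (0.0669), and in the TF2 line without TF2 line replicate 1 (0.0791). CSLC5 and CSLC04 were not called, with changes of −1.21 and −0.35 in the TF1 line and −0.65 and 0.01 in the TF2 line. The median change of the 4 CSLC genes was 0.12 for the TF1 line and 0.28 for the TF2 line, that of XTH18, XTH19, XTH32 and EXGT-A3, of which XTH19 and XTH32 passed the filter through wild type, was −1.78 and −2.56, and that of all tested probe sets was −0.02 and 0.05.

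Expansins and endoglucanases of family GH9, further proteins and enzymes that act on the wall, were called in both directions. Of 34 with a probe set of their own, 22 were tested, of which 6 were higher and 1 lower in the TF1 line, and 4 higher and 2 lower in the TF2 line, by limma. As shares of the 22 these are 27.3% higher and 4.55% lower in the TF1 line, beside 11.9% and 9.64% of all tested probe sets, and 18.2% higher and 9.09% lower in the TF2 line, beside 14.8% and 16.0%. The TF2 share of higher genes is near that of all probe sets. EXLA1, an expansin-like gene, had the same order of groups as XTH19: it averaged 147 ± 13.1 in the TF1 line, 40.7 ± 7.20 in the TF2 line and 439 ± 125 in wild type (SD, n = 2 arrays a group). The EXLA1 change was −1.48 in the TF1 line (adjusted p = 0.00263) and −3.11 in the TF2 line (adjusted p = 7.86e-06), the first call being lost without wild type replicate 1 (adjusted p = 0.0898) and without the intensity trend (0.0597). GH9B7, an endoglucanase gene, was the other gene lower in the TF2 line (−2.14, adjusted p = 0.00414), with a change of −2.87 without TF2 line replicate 1 and −1.40 without TF2 line replicate 2.

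GH9A4, EXPA4 and GH9B11 were among the genes that were higher. Their log2 changes were 1.42, 1.21 and 1.02 in the TF1 line and 1.42, 1.31 and 1.22 in the TF2 line (adjusted p at most 0.000144 by limma). After quantile normalization those of GH9A4 and EXPA4 were 0.63 and 0.38 in the TF1 line and 0.51 and 0.38 in the TF2 line, and the GH9B11 change in the TF1 line was 0.18 (adjusted p = 0.291). Without the intensity trend, the calls of EXPA4 (adjusted p = 0.0506) and GH9B11 (0.0681) in the TF1 line were lost. The median over the 22 tested genes was 0.47 for the TF1 line and 0.59 for the TF2 line, and over all 34, with those below the filter taken from the fit without it, 0.31 and 0.46.

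**Figure D3:**
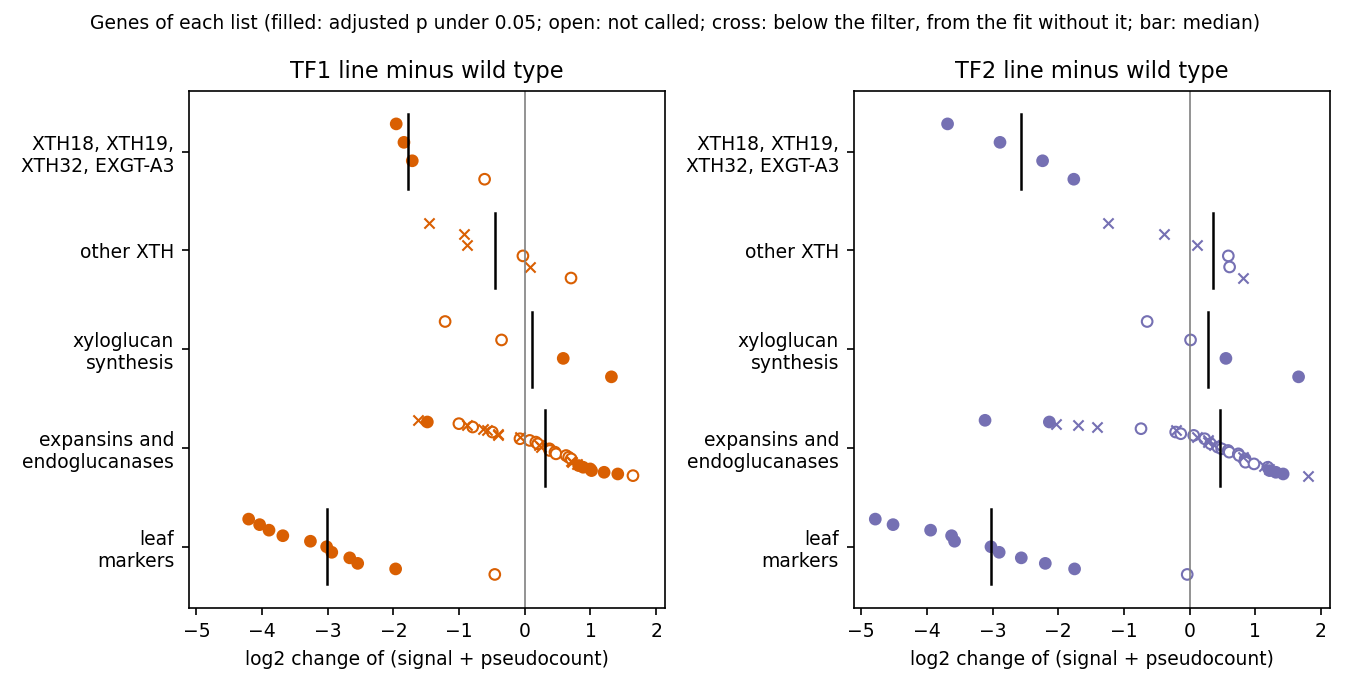
Log2 change of (signal + pseudocount) of each line minus wild type for the genes of 5 lists, where filled points have an adjusted p under 0.05, crosses are genes below the filter (from the fit without it) and black bars are medians over all genes drawn. XTH18, XTH19, XTH32 and EXGT-A3 lie on the same side of 0 as the leaf markers in both lines, the medians of the CSLC list and of the expansin and endoglucanase list lie above 0, and that of the other XTH genes lies at −0.46 for the TF1 line and 0.35 for the TF2 line.

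The array profiles of the 4 genes were set beside each other as a description, with no test of their differences. Each log2 profile over the 6 arrays was centred on its own mean. The root-mean-square difference was then smallest between XTH19 and XTH32 (0.65) and largest between XTH18 and EXGT-A3 (1.03). The SD of the limma fit, moderated across probe sets, was 0.43 to 0.60 for single genes. A difference between 2 genes carries the spread of both, so these SDs are no direct yardstick for it. The log2 SD of the 2 arrays of a group ran from 0.01 (EXGT-A3, wild type) to 1.29 (XTH18, TF2 line). For XTH18 the moderated SD (0.554) lay under its own log2 SD in the TF1 line (0.641) and the TF2 line (1.29). For EXGT-A3 the moderated SD (0.426) lay under that in the TF1 line (0.891). For XTH19 and XTH32 it lay above their own log2 SD in every group. The tandem neighbours XTH18 and XTH19 differed by 0.79, and XTH18 stayed at 56.2 on TF2 line replicate 1 where XTH19 read 3.54. These profiles share the same 6 arrays and the same wild-type samples, so likeness among them is a description only.

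The probe sets nearest to each gene by this measure were taken from 6276 tested probe sets with 1 gene. For XTH18 they were AT4G01150, also known as CURT1A, a gene of thylakoid membrane curvature (difference 0.15), AT5G58330, which encodes an NADP-dependent malate dehydrogenase (0.19), and AT4G36500 (0.21). AT4G01150 read 77.2 and 128 on the TF1 arrays, 77.7 and 14.7 on the TF2 arrays, and 379 and 371 on the wild-type arrays, and thus was also low on TF2 line replicate 2. For XTH19 they were AT2G41800 (0.14), the acid phosphatase gene PAP20 (0.25) and AT1G78040 (0.27). AT2G41800 read 90.8 and 67.3 on the TF1 arrays, 17.6 and 12.8 on the TF2 arrays, and 242 and 287 on the wild-type arrays, the same order of groups as XTH19.

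For XTH32 the nearest were AT1G68410 (0.14), AT3G12050 (0.16) and AT5G63620 (0.17). AT1G68410 read 59.9 and 29.9 on the TF1 arrays, 8.03 and 11.7 on the TF2 arrays, and 71.2 and 72.7 on the wild-type arrays. For EXGT-A3 they were AT5G22620 (0.16), AT3G62580 (0.19) and AT1G24510 (0.19). AT5G22620 read 39.7 and 9.01 on the TF1 arrays, 19.6 and 22.4 on the TF2 arrays, and 102 and 120 on the wild-type arrays. It was lowest on TF1 line replicate 2, as EXGT-A3 was, which follows from the choice by likeness.

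**Figure D4:**
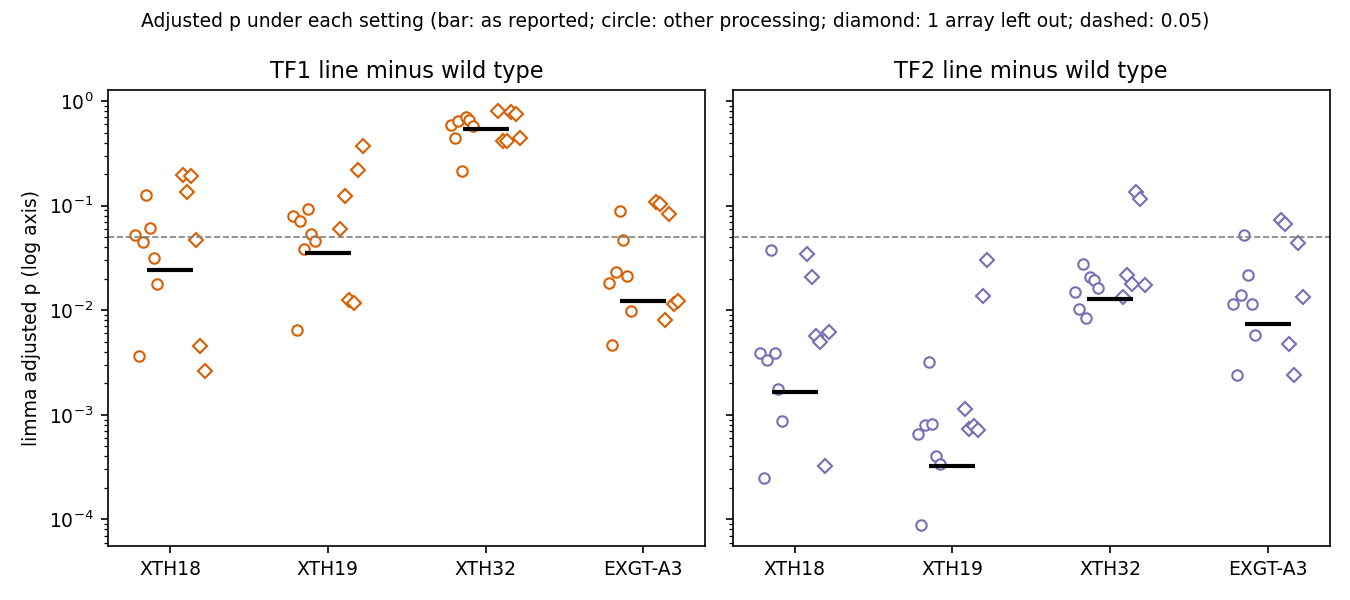
Limma adjusted p (log axis) of XTH18, XTH19, XTH32 and EXGT-A3 in either line against wild type under every setting tried. Bars are the reported values, circles other processing, diamonds fits with 1 array left out, and the dashed line is 0.05. In the TF2 line all points of XTH18 and XTH19 lie under the line, whereas XTH18, XTH19 and EXGT-A3 in the TF1 line have points on both sides.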

How the data were processed

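Total RNA of mature pollen was labelled with biotin by the one-cycle protocol and measured on 6 arrays, per the labels. The authors deposited 1 signal intensity per probe set and array on a linear scale, made with MAS5 and GCOS per the submitters' processing notes; no version or setting is stated there, and no detection calls were used here. The mean after trimming 2% at each end was 100.0 on all arrays, and the values were used with that scaling. Groups were taken from the sample titles.

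Of 22810 probe sets, 64 controls were left out, and 13513 had 1 gene, 503 several and 8730 none listed in the probe annotation. The gene table (RefSeq, TAIR10.1) served for names and gene order only. Values were tested as log2(intensity + 10.3) in limma 3.58.1 (R 4.3.3) with an intensity trend, all 6 arrays in 1 fit, two-sided. The 11373 probe sets with a mean at or above the median were kept. Exact permutation of 2 arrays against 2 cannot pass 0.05 and was not run. Precision is limited by having 2 arrays a group.

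The genes named are the 4 XTH genes, other XTH genes, up to 4 called genes by size from each list and, for each XTH gene, the 3 nearest profiles; XTH genes without a call, CSLC5, CSLC04 and marker genes are named beyond that. Members and lists were chosen with earlier results of these data known. Protein and promoter sequences were not used here. Alternatives covered the pseudocount, the filter, the trend, 2 normalizations, a replicate block and leaving out each array. Arrays with the same replicate number did not deviate together (r = 0.0079, 0.022 and 0.0020 for the 3 pairs of groups over 11373 probe sets), so the numbers were not treated as pairs.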

Additional observations from a re-analysis of the deposited data

Results flagged for a closer look

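Among the tested XTH, CSLC, expansin and GH9 endoglucanase genes, 2 differed between the lines in their change from wild type by limma. Marker genes and the nearest-profile genes were not counted here. EXLA1 was lower in the TF2 line than in the TF1 line by a log2 difference of −1.63 (SE 0.29, adjusted p = 0.00603), with 35.6 and 45.8 on the TF2 arrays against 157 and 138 on the TF1 arrays. That call was lost without TF1 line replicate 1 (adjusted p = 0.0726), without TF1 line replicate 2 (0.0511) and without the intensity trend (0.0759). The expansin gene EXPA24 was lower in the TF2 line than in the TF1 line by −1.03 (SE 0.15, adjusted p = 0.00180), with 437 and 422 on the TF2 arrays against 874 and 905 on the TF1 arrays, and the call was lost without the intensity trend (adjusted p = 0.113). EXPA24 read 538 and 463 on the wild-type arrays. Against wild type it was called higher in the TF1 line (0.82, adjusted p = 0.00191 by limma). It was not called in the TF2 line (−0.21, adjusted p = 0.322).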

How the results depend on the processing

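All 4 XTH genes kept their direction against wild type in both lines under every alternative run. Every array of the lines read below both wild-type arrays, so only the 2 normalizations could have changed that direction. XTH18, XTH19 and XTH32 stayed called in the TF2 line under all processing alternatives run on all arrays. EXGT-A3 lost its call there only without the intensity trend. The number of probe sets called fell without the intensity trend to 456, against 2453 with it, in the TF1 line, to 2185 against 3506 in the TF2 line, and to 175 against 529 between the lines. Leaving out 1 array gave 1266 to 2817 in the TF1 line, 2113 to 3543 in the TF2 line and 217 to 589 between the lines. The TF1 calls that were lost had log2 changes, for XTH18, of −2.08 with the pseudocount of 3.87, −1.96 without the trend and −1.70 after quantile normalization. For XTH19 they were −1.99 with that pseudocount, −1.84 without the filter, −1.57 after quantile normalization and −1.69 after median centring, and for EXGT-A3 −1.71 without the trend. EXGT-A3 in the TF2 line was −1.76 without the trend. Leaving out 1 array gave, in the TF1 line, −2.41 to −1.50 for XTH18, −2.10 to −1.58 for XTH19, −0.89 to −0.33 for XTH32 and −2.34 to −1.08 for EXGT-A3. In the TF2 line it gave −3.80 to −1.98 for XTH18, −3.87 to −3.50 for XTH19, −2.29 to −2.19 for XTH32 and −2.01 to −1.52 for EXGT-A3. Between the lines EXGT-A3 reversed to 0.58 without TF1 line replicate 1 and 0.19 without TF2 line replicate 1, with a range of −0.68 to 0.58. Without wild type replicate 1 the XTH19 change in the TF1 line was −2.02, and without wild type replicate 2 it was −1.65. The cause of these losses was not tested. With some arrays left out, XTH19 and XTH32 fell under the filter, and their values then come from fits, chosen after seeing the data, that kept the probe sets tested with all arrays. The replicate block changed no call of the 4 genes (XTH19 in the TF1 line, −1.84, adjusted p = 0.0455) and gave 2521, 3558 and 593 calls. Median centring moved the median change over the tested probe sets to 0.14 for the TF1 line and 0.16 for the TF2 line, and quantile normalization to 0.11 and 0.14. Relative to that median, XTH18, XTH19, XTH32 and EXGT-A3 changed by −1.80, −1.68, −0.52 and −1.55 in the TF1 line after quantile normalization, and by −2.82, −3.69, −2.25 and −1.70 in the TF2 line. Signals under the pseudocount are compressed by it, and their fold depends on its size. This holds for XTH19 and XTH32 on both TF2 arrays and for XTH18 on TF2 line replicate 2. In the TF2 line XTH19 changed by −4.56 with the pseudocount of 3.87 and by −2.31 with that of 37.5. The same changes were −2.75 and −1.32 for XTH32, and −3.23 and −2.14 for XTH18.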

Other observations

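The nearest genes with a probe set of their own on either side of the XTH genes in gene order were chosen after the values were seen. Of these, AT2G01870 and AT4G30230 fell below the filter on dim probe sets. AT4G30310, the nearest gene after XTH19 with a probe set of its own, averaged 474 ± 52.5 in the TF1 line, 508 ± 11.4 in the TF2 line and 339.6 ± 6.36 in wild type (SD, n = 2 arrays a group), and was higher in the TF2 line by 0.57 (adjusted p = 0.0191 by limma). AT2G36835, the nearest before XTH32, averaged 69.9 ± 3.55 in the TF1 line, 60.6 ± 5.73 in the TF2 line and 141 ± 38.8 in wild type, and was lower in the TF2 line by −1.07 (adjusted p = 0.0384). AT2G36885, the nearest after XTH32, and AT2G01840, the nearest before EXGT-A3, were called in neither line (changes of 0.55 and 0.23 in the TF2 line, adjusted p = 0.307 and 0.800).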
